A study of Mus musculus with 13 samples.

Results

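The transcripts of 7 lysosomal cathepsin genes (Ctsa, Ctsb, Ctsd, Ctsh, Ctsk, Ctsl and Ctsz) were followed across 13 primary cultures of neonatal mouse dermal fibroblasts, out of 25655 genes measured. The 7 genes were listed by name and chosen by their TPM differences between genotypes, with Ctsh, which ranked 1 of 11942 genes by p value over both sets, as the lead. Their genotype differences are therefore given as descriptions, with no test. RNA was sequenced from untreated cultures of the skin of WT mice and of mice homozygous for Fbn1 G234D, an allele of the gene for the microfibril protein fibrillin-1. There were 4 cultures of each genotype in set 1, named W1 to W4 (WT) and M1 to M4 (Fbn1 G234D/G234D). Set 2 added W5 and W6 (2 WT) and M5, M6 and M7 (3 Fbn1 G234D/G234D). The study asked whether the mutation changes dermal fibroblasts themselves, above all in genes of the extracellular matrix. The labels give the age only as neonatal, and give no strain. Values are in TPM, a unit of transcript abundance scaled to gene length and to the library total, so levels of different genes can be compared. TPM do not show how deeply each library was read, so depth is unknown. Differences are G234D minus WT on the log2(TPM + 1) scale unless said otherwise.

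Cathepsins are proteases that are made as inactive precursors, carried to the lysosome on sorting receptors and activated at its low pH. Most are cysteine proteases of the papain family, which cystatins inhibit. Ctsd encodes an aspartic protease and Ctsa a serine carboxypeptidase that also protects the enzymes beta-galactosidase and neuraminidase. In connective tissue fibroblasts use cathepsins to degrade collagen that they have taken up, and macrophages carry high levels of several of them.

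The cysteine proteases of the list share the part of the coding sequence that holds the catalytic cysteine, and this part separates them from Ctsa and Ctsd. A run of 5 codons that begin TG, GG, any letters, TG and TGG was searched in frame in the coding sequences of principal transcripts of GENCODE M21 (build mm10, coding strand only). It was found in 5 of the 7 listed genes and in 25 of 21689 genes searched (0.115%). Each of the following stretches of 45 bases is spliced coding sequence, 5′ to 3′, with the matched letters in capitals.
Ctsh: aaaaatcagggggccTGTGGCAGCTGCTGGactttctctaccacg
Ctsb: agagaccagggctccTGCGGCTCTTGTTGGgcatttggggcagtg
Ctsk: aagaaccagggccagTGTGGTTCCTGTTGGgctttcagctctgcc
Ctsl: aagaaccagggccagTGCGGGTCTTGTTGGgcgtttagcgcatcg
Ctsz: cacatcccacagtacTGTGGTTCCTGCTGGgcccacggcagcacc
The stretch of Ctsh was identical to that of Ctsk at 27 of 45 bases, to Ctsb at 25, to Ctsl at 24 and to Ctsz at 23. The catalytic cysteine is encoded by codon 139 of 333 in Ctsh and codon 94 of 306 in Ctsz. The stretch of Ctsh joins exons 5 and 6 (chr9:90064249-90064542, plus strand), and that of Ctsz lies in exon 2 (chr2:174438178-174438222, minus strand). The other stretches join exons 4 and 5 of Ctsb (chr14:63135693-63136421, plus strand), Ctsk (chr3:95501698-95502617, plus strand) and Ctsl (chr13:64367057-64367868, minus strand).

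Fibroblast markers were high in sum in every culture, though not each of them. Lum ran from 5.37 TPM in W1 to 19.7 TPM in W6. Pdgfra was at 37.8 and 48.7 TPM in M1 and M2, against 83.3 to 143 TPM in the other cultures. The summed level of 10 fibroblast markers, among them Col1a1, Pdgfra and Dcn, ran from 27715 to 37859 TPM. The sums were 2.55 to 8.34 TPM for 6 keratinocyte markers and 2.94 to 4.10 TPM for 5 endothelial markers. A library had 11741 to 12042 genes at 1 TPM or more. The titles number the animals. In set 1 the numbers of W1, W2, M1 and M2 are lower (earlier animals). Those of W3, W4, M3 and M4 are higher and consecutive (later animals). The earlier animals are not a close run. The number of W1 lies further below those of M1, M2 and W2 than these lie below the later animals. The widest gap in the numbers of set 1 therefore falls inside the earlier group, and W1, a WT culture, stands apart there. No label says that the numbers mark a batch. M1 and M2 stood apart from the other cultures in markers of other cell types: 8 Schwann cell markers summed to 139 and 140.1 TPM there and to 21.1 to 47.3 TPM in the other 11 cultures. The genotype differences of the listed genes over both sets are therefore given with and without these cultures.

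All 7 genes were well expressed, and Ctsd was the highest by a wide margin (the plot of values by culture). Together they took 0.228% to 0.320% of all TPM. Ctsd took 41.2% of their sum on average and Ctsh 3.04%. The median over the 13 cultures was 1124 TPM for Ctsd, 352 for Ctsz, 349 for Ctsb, 276 for Ctsk, 223 for Ctsl, 215 for Ctsa and 77.4 for Ctsh. Ctsd was above Ctsz in 13 of 13 cultures, by 3.07-fold, and Ctsa above Ctsh in 13 of 13, by 2.79-fold (two-sided permutation test with all sign changes, adjusted p = 0.000732 for each over 6 neighbouring pairs). Ctsb was above Ctsk by 1.27-fold in 12 of 13 cultures (permutation test, adjusted p = 0.00391), and Ctsk above Ctsl by 1.24-fold in 11 of 13 (permutation test, adjusted p = 0.00403). Ctsz and Ctsb did not differ beyond their spread (mean log2 ratio −0.054, SD 0.18, permutation test, adjusted p = 0.319), nor did Ctsl and Ctsa (0.054, SD 0.19, permutation test, adjusted p = 0.319).

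**Figure D1:**
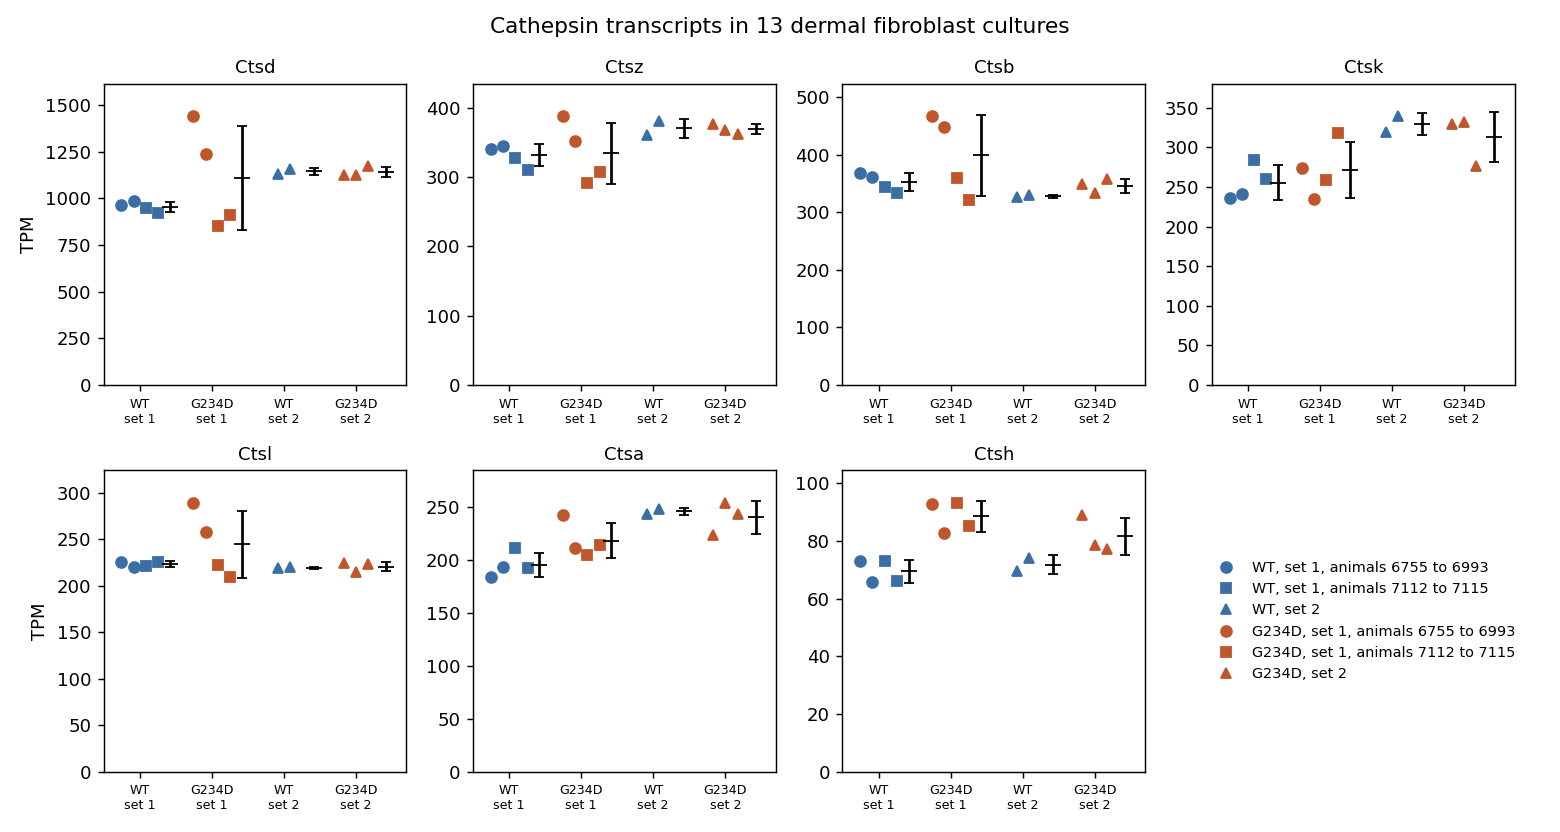
TPM of the 7 cathepsin genes, 1 point per culture, by genotype and set; circles are the earlier and squares the later animals of set 1, triangles are set 2, and bars give the mean ± SD. Ctsh is higher in every G234D culture than in every WT culture of its set, while Ctsd, Ctsb and Ctsl are high in the 2 earlier G234D cultures (circles).

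Ctsh encodes a cysteine protease that mainly removes residues one by one from the amino end of proteins. The gene (ENSMUSG00000032359) lies on the plus strand of chromosome 9 from 90054152 to 90076089 (mm10), and no other annotated gene overlaps it. In set 1 it was at 73.0, 65.9, 73.1 and 66.3 TPM in W1 to W4 and at 92.9, 82.9, 93.3 and 85.1 TPM in M1 to M4. In set 2 it was at 69.5 and 74.1 TPM in W5 and W6 and at 89.1, 78.6 and 77.4 TPM in M5 to M7. All 7 G234D cultures exceeded both or all WT cultures of the same set, so the groups did not overlap in either set. Over both sets 44 of 11942 genes (0.368%) were higher in this way and 27 (0.226%) lower. Ctsh was the 1 listed gene that did so; the contrast had chosen Ctsh, and nothing is read from this count.

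The difference of Ctsh was of like size in both animal groups of set 1 and was smaller in set 2. The mean of Ctsh in set 1 was 69.6 ± 4.04 TPM for WT and 88.6 ± 5.34 TPM for G234D (SD, n = 4 each). In set 2 the means were 71.8 ± 3.23 TPM (SD, n = 2) and 81.7 ± 6.46 TPM (SD, n = 3). The difference came to 0.33 among earlier animals, 0.35 among later ones and 0.18 for set 2 (SE 0.072, 95% interval 0.020 to 0.34). Over both sets it was 0.28 (SE 0.051, 95% interval 0.17 to 0.39), a 1.22-fold value. With each library left out in turn it ran from 0.26 to 0.31, and without M1 and M2 together it was 0.27. Ctsh was chosen with the comparison over both sets known, so these values and intervals are a description, with no test. In this comparison limma, a linear model with moderated variances, called 0 of 11942 genes at an adjusted p under 0.05 (0%), hence 0 of the 7, and 769 genes had an unadjusted p under 0.05 (6.44%). Within set 1 it called 0 of 11905 genes (0%; 721 or 6.06% at unadjusted p under 0.05), 1 gene with the replicate number as a block and 23 genes without M1 and M2, with 0 of the 7 among them. Within set 2 it called 1 of 12060 (0.00829%; 781 or 6.48% at unadjusted p under 0.05), which is not one of the 7.

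The other 6 genes did not share the pattern of Ctsh across the groups, as the chart of deviations from the WT mean shows. In the earlier animals 6 of the 7 genes, all but Ctsk, were higher in both G234D cultures than in both WT cultures (27.5% of all genes tested), and 0 of 7 were lower in both (30.2%). In the later animals Ctsh alone was higher in both (21.3% of all genes), and Ctsd and Ctsz were lower in both (18.4%). Ctsh alone was higher without overlap in both animal groups (4.71% of all genes). The genotype contrast chose the genes, and nothing is read from these counts. All 7 had positive differences in the earlier animals, with a median of 0.29 against −0.011 over all 11942 genes tested. In the later animals 4 of 7 were positive, with a median of 0.0023 against 0.0093 over all genes. In set 2, 3 of 7 were positive, with a median of −0.0048 against 0.030 over all genes.

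**Figure D2:**
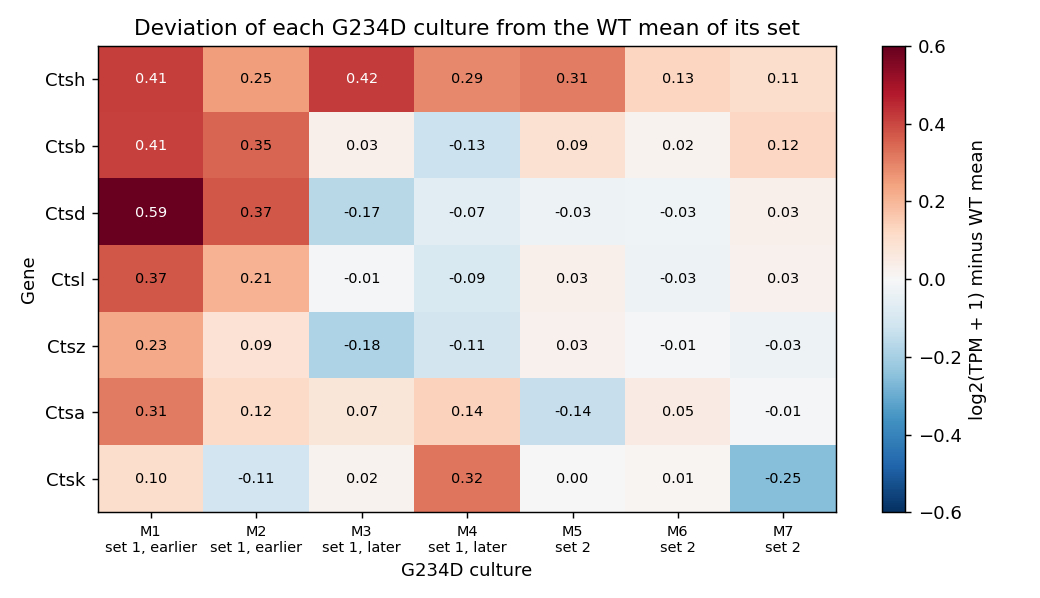
Deviation of each G234D culture from the WT mean of its set on the log2(TPM + 1) scale, genes in rows and cultures in columns, red above and blue below the WT mean. Ctsh is above the WT mean in all 7 cultures; Ctsb, Ctsd and Ctsl are highest in M1 and M2.

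Ctsd encodes the main aspartic protease of lysosomes (ENSMUSG00000007891, minus strand of chromosome 7 from 142375911 to 142388038). In set 1 it was at 963, 988, 948 and 924 TPM in W1 to W4 and at 1442, 1239, 850.4 and 912 TPM in M1 to M4. In set 2 it was at 1134 and 1160.1 TPM in W5 and W6 and at 1124, 1126 and 1172 TPM in M5 to M7. M1 and M2 were above every WT culture of set 1 and M3 and M4 below every one, and in set 2 the groups overlapped. The difference came to 0.45 among earlier animals, −0.087 among later ones and −0.0079 for set 2. Without M1 and M2 together the value over both sets went from 0.11 to −0.065.

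Ctsb encodes a cysteine protease with both internal and carboxy-terminal cleavage (ENSMUSG00000021939, plus strand of chromosome 14 from 63122462 to 63145923). It was at 367, 362, 344 and 334 TPM in W1 to W4, at 467, 448, 359 and 322 TPM in M1 to M4, at 326 and 329 TPM in W5 and W6 and at 349, 333 and 357 TPM in M5 to M7. The groups overlapped in set 1 through M3 and M4, and in set 2 M5, M6 and M7 exceeded W5 and W6. The difference came to 0.33 among earlier animals, 0.0023 among later ones and 0.078 for set 2 (95% interval −0.034 to 0.19). Over both sets it was 0.13 (SE 0.075), and 0.011 without M1 and M2.

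Ctsl encodes a cysteine endopeptidase (ENSMUSG00000021477, minus strand of chromosome 13 from 64359337 to 64370890). It was at 226, 220.4, 221 and 226 TPM in W1 to W4 and at 289.6, 258, 223 and 209.7 TPM in M1 to M4. In set 2 it lay between 215 and 224 TPM in all 5 cultures. M1 and M2 again stood above the WT cultures and M4 below them. The difference came to 0.29 among earlier animals, −0.050 among later ones and 0.0089 for set 2. Over both sets it was 0.079, and −0.021 without M1 and M2.

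Ctsz encodes a cysteine protease that acts as a carboxypeptidase (ENSMUSG00000016256, minus strand of chromosome 2 from 174427493 to 174439039). It was at 341, 345, 328 and 310.5 TPM in W1 to W4, at 388, 352, 291 and 307 TPM in M1 to M4, and between 361 and 380.3 TPM in the 5 cultures of set 2. Its difference over both sets was 0.0017 (95% interval −0.12 to 0.13), and −0.079 without M1 and M2. Earlier animals gave 0.11, later ones −0.094 and set 2 −0.0048.

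Ctsa, the carboxypeptidase gene (ENSMUSG00000017760, plus strand of chromosome 2 from 164832873 to 164841032), was at 184, 193, 211 and 193 TPM in W1 to W4 and at 243, 212, 205 and 215 TPM in M1 to M4. In set 2 it was at 244 and 249 TPM in W5 and W6 and at 223, 254 and 244 TPM in M5 to M7. M1, M2 and M4 lay above the 4 WT cultures of set 1, M3 below W3, and in set 2 the groups overlapped. Its difference was 0.26 among earlier animals, 0.056 among later ones and −0.035 for set 2. Over both sets it was 0.086, and 0.038 without M1 and M2.

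Ctsk encodes a collagen-degrading cysteine protease known from osteoclasts and also made by fibroblasts (ENSMUSG00000028111, plus strand of chromosome 3 from 95499256 to 95509362). It was at 236, 241, 284 and 260.5 TPM in W1 to W4 and at 274, 235, 258 and 319 TPM in M1 to M4. In set 2 it was at 319 and 339.7 TPM in W5 and W6 and at 330.1, 332 and 276 TPM in M5 to M7. The groups overlapped in both sets, and the difference was 0.089 among earlier animals, 0.077 among later ones and −0.080 for set 2. Over both sets it was 0.022, and 0.052 without M1 and M2. Osteoclast markers other than Ctsk were low, with a sum over 7 genes of 9.42 to 22.1 TPM.

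The genotype difference of the earlier animals less that of the later ones was estimated with limma, a term added after the values had been seen. It uses the contrast that chose the 7 genes, so their values are a description, with no test. The term was 0.54 for Ctsd (SE 0.10), 0.34 for Ctsl, 0.32 for Ctsb, 0.21 for Ctsa, 0.20 for Ctsz, 0.012 for Ctsk (95% interval −0.34 to 0.36) and −0.018 for Ctsh (95% interval −0.28 to 0.24). With each library left out the Ctsd value stayed between 0.43 and 0.65. Over all 11905 genes 334 (2.81%) had an adjusted p under 0.05, 1.87% with a larger and 0.932% with a smaller difference in the earlier animals, and 20.1% had an unadjusted p under 0.05. With the replicate number as a block the count was 189. The interaction of set and genotype called 0 of 11942 genes (0%; 691 or 5.79% at unadjusted p under 0.05). Its value was −0.16 for Ctsh, −0.19 for Ctsa and −0.19 for Ctsd. Without M1 and M2 it was −0.17 for Ctsh, −0.14 for Ctsa and 0.11 for Ctsd, so the sign for Ctsd turned, and 16 genes were called.

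**Figure D3:**
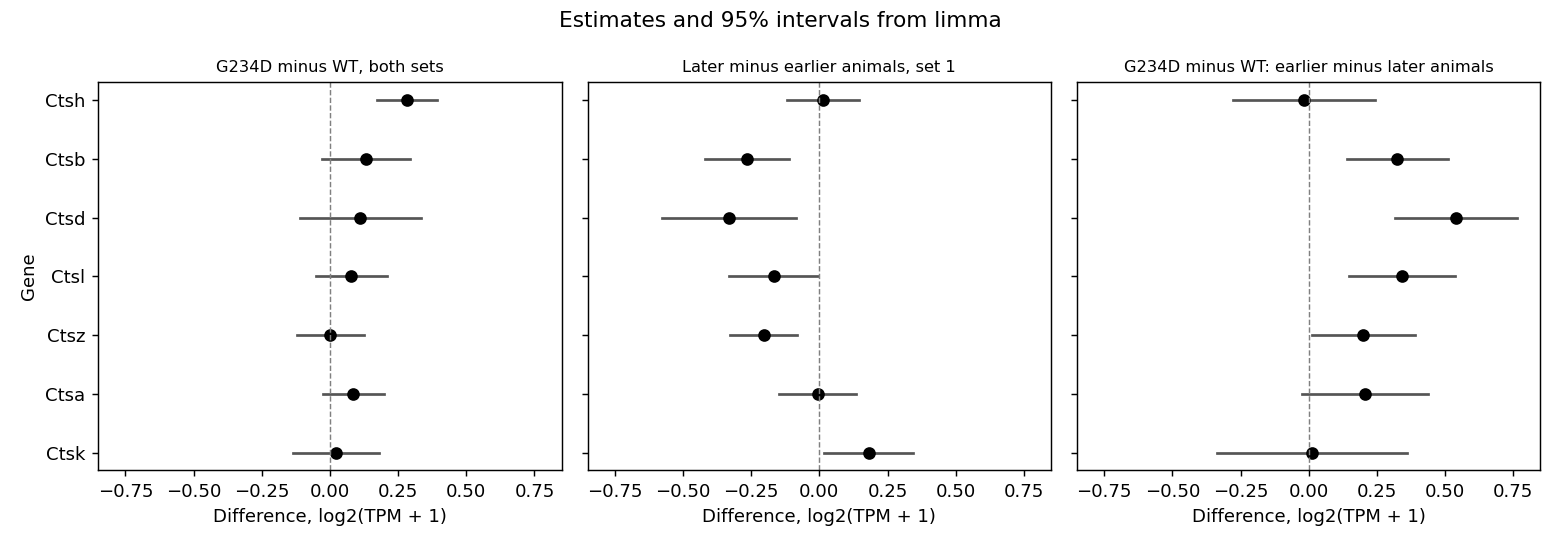
Estimates (points) and 95% intervals (lines) from limma for the 7 genes on the log2(TPM + 1) scale: the genotype difference over both sets, the difference of later minus earlier animals in set 1, and the amount by which the genotype difference of the earlier animals exceeds that of the later ones. Ctsh lies at 0.28, 0.013 and −0.018 in the 3 panels, and Ctsd at 0.11, −0.33 and 0.54.

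Markers of macrophages, which are rich in cathepsins, moved with part of this pattern. The sum of 14 macrophage markers was 102, 41.2, 37.6 and 40.6 TPM in W1 to W4 and 171, 228, 50.3 and 49.6 TPM in M1 to M4. In set 2 it was 111 and 113 TPM in W5 and W6 and 175, 124 and 139 TPM in M5 to M7. Of these 14 genes 11 passed the filter over both sets and 11 of 11 had positive genotype differences (56.6% of all genes). Their median was 0.51 against 0.011 over all genes. Of the 14, Aif1 was listed at 0 in W1 and M4, and the others were above 0 in every culture. The myeloid cathepsin gene Ctss, at 8.33, 4.02, 3.06 and 2.93 TPM in W1 to W4 and 16.9, 19.4, 4.28 and 2.99 TPM in M1 to M4, followed the marker sum. Ctsd and Ctsb were highest in M1 and M2, where the sum was highest in set 1. W1 had a higher sum than W2 (102 against 41.2 TPM) with Ctsd at 963 against 988 TPM. M3 and M4 had sums of 50.3 and 49.6 TPM, and there Ctsh was as high as in M1 and M2. Muscle and Schwann cell markers were highest in the same 2 cultures, and M1 had 508 TPM of 12 muscle markers against 76.4 to 387 TPM in the other cultures. The part of these cells in the cathepsin values was not tested. In cultures that hold several cell types, more cells of a type and more RNA per cell cannot be told apart.

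**Figure D4:**
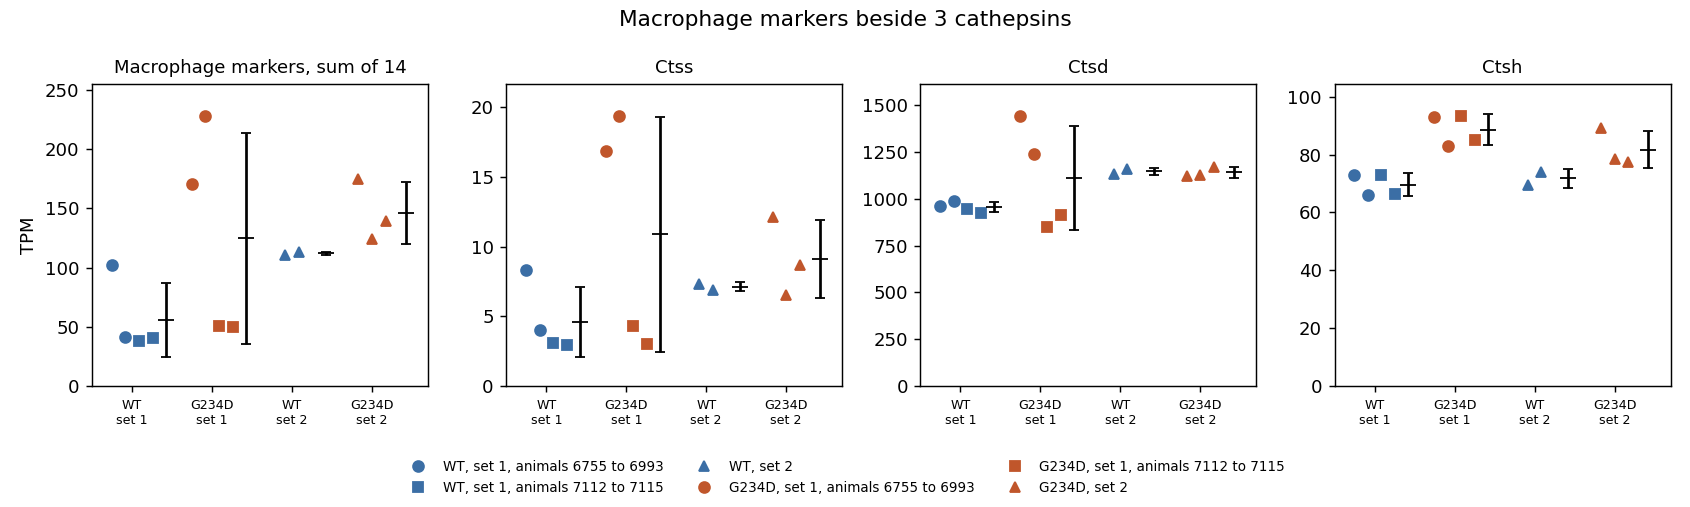
TPM of 14 macrophage markers summed, of Ctss, Ctsd and Ctsh, 1 point per culture, with symbols and bars (mean ± SD) as in the plot of values by culture. Within set 1 the marker sum, Ctss and Ctsd are highest in the earlier G234D cultures, and Ctsh is as high in the later ones; M5 of set 2 has a marker sum of 175 TPM, near that of M1.

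The earlier and later animals of set 1 were compared with genotype as a covariate, a comparison that did not choose the genes. The fall of Ctsd lay mainly in the G234D cultures, from a mean of 1341 to 881 TPM against 976 to 936 TPM in WT. Ctsb went from 458 to 340 TPM in G234D and from 365 to 339 TPM in WT, and Ctsl from 274 to 216 TPM and from 223 to 224 TPM. In this comparison limma called 850 of 11905 genes (7.14%; 332 or 2.79% higher and 518 or 4.35% lower in the later animals; 26.7% at unadjusted p under 0.05). Of the 7 listed genes 1 was called: Ctsb fell by 0.27 from the earlier to the later animals (SE 0.069, adjusted p = 0.0496). That call was lost in 7 of 8 fits with 1 library left out, where adjusted p ran from 0.0455 (without W2) to 0.167 (without M2), and the Ctsb value stayed between −0.31 and −0.20. It was also lost with other pseudocounts, scalings, no robust step and no filter (adjusted p 0.0502 to 0.0863). Ctsd was at −0.33 (adjusted p = 0.0971), Ctsz at −0.20 (0.0550), Ctsl at −0.17 (0.174) and Ctsk at 0.18 (0.149), by the same test. Ctsh was at 0.013 (95% interval −0.12 to 0.15, adjusted p = 0.910) and Ctsa at −0.0059 (0.966), with a sign for both that changed with the setting.

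Among 15 other cathepsin genes 5 passed the filter and 10 did not, 9 of which, among them Ctse and Ctsg, were listed at 0 in every culture. Ctsc, which encodes the dipeptidyl peptidase that activates granule proteases, was at 29.4, 22.8, 27.3 and 29.6 TPM in the earlier animals (W1, W2, M1, M2) and at 11.9, 15.7, 12.9 and 9.05 TPM in the later ones (W3, W4, M3, M4). It fell by 1.09 on the log2 scale (SE 0.15, limma adjusted p = 0.0137), and lost the call without M2 (0.0650). Ctss fell by 1.42 (SE 0.30, adjusted p = 0.0381), a call that held in 2 of 8 fits with 1 library left out, with adjusted p up to 0.127, and was lost with no filter (0.0550). Markers of other cells moved in the same comparison. Of 9 macrophage markers tested 9 had negative values, against 6753 of 11905 genes, and 1 was called lower, against 4.35% of all genes. The called marker was Laptm5, which fell by 1.15 (SE 0.25, limma adjusted p = 0.0366, called in 2 of 8 fits with 1 library left out). Of 3 osteoclast markers tested 2 were called lower, against the same 4.35%. Acp5 fell by 1.08 (limma adjusted p = 0.00511) and Mmp9 by 1.21 (0.00576), each in 8 of 8 such fits. Acp5 was low, at 2.74 to 3.75 TPM in the earlier and 0.896 to 1.15 TPM in the later animals. With the other settings the size of its fall changed, with values from −1.60 to −0.46, and Mmp9 ran from −1.44 to −0.73. The third, Nfatc1, was at −0.0071 (adjusted p = 0.966), and the osteoclast marker Dcstamp was listed at 0 in every culture. Whether osteoclasts were present was not tested, nor was the part of other cell types in the cathepsin values. Over both sets the genotype differences of the 5 other cathepsin genes tested were 0.63 for Ctss (SE 0.40), 0.19 for Ctsf, 0.12 for Ctso, 0.088 for Ctsc and −0.15 for Ctsw, and 0 of the 5 were called. Only Ctss had the same sign in both sets (0.84 in set 1 and 0.28 in set 2). Ctsf was at 0.37 in set 1 and −0.11 in set 2, Ctso at 0.20 and −0.012, Ctsc at −0.092 and 0.39, and Ctsw at −0.27 and 0.044. Without M1 and M2 Ctss was at 0.032 and Ctsc at −0.21.

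Of 12 inhibitor genes 4 passed the filter. Of these 4, 1 was called higher in the later animals and 1 lower, against 2.79% and 4.35% of all genes. Cst3, which encodes the secreted inhibitor cystatin C, was at 517 and 589 TPM in W1 and W2, 461 and 464 TPM in M1 and M2, 818 and 639 TPM in W3 and W4, and 588 and 789 TPM in M3 and M4. It rose by 0.47 from the earlier to the later animals (SE 0.11, limma adjusted p = 0.0433), a call kept in 2 of 8 fits with 1 library left out (adjusted p up to 0.147). Ctla2b, whose product is like a cathepsin propeptide, fell by 0.92 (limma adjusted p = 0.0280, called in 3 of 8 such fits). Its levels were low, at 1.09 to 2.325 TPM in the earlier animals and 0.127 to 0.578 TPM in the later ones. Ctla2b thus passed the filter only through the earlier animals, where it was high, so nothing is read from its call. With the other settings its value ran from −1.90 to −0.30. Its relative Ctla2a was at −0.99 (adjusted p = 0.0538) and was not called. Cstb, the cystatin of the cytosol, was at −0.095 (adjusted p = 0.405). By genotype Cst3 was at −0.20 (SE 0.14) and Cstb at 0.051 over both sets.

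Genes that carry cathepsins to the lysosome and mature them all passed the filter. Of 17 sorting genes 2 were called lower in the later animals and 0 higher, against 4.35% and 2.79% of all genes. They were Igf2r, the large mannose 6-phosphate receptor, at −0.51 (SE 0.095, limma adjusted p = 0.0272; called in 4 of 8 fits with 1 library left out), and Sort1, the receptor sortilin, at −0.36 (SE 0.082, adjusted p = 0.0352; 2 of 8). The small mannose 6-phosphate receptor gene M6pr was at −0.13 (adjusted p = 0.0778). Of 5 partners and processing genes 0 were called. Cd74, the invariant chain, which cathepsins process, had the smallest p and was at 1.14 (SE 0.31, limma adjusted p = 0.0655). Its levels were low, at 2.09 and 2.05 TPM in W1 and W2 and 0.529 and 1.09 TPM in M1 and M2. In the later animals it was at 2.60 to 6.97 TPM. Lgmn, which encodes the asparaginyl endopeptidase that trims cathepsins, was at −0.17 (adjusted p = 0.0962) and Glb1, whose product Ctsa protects, at −0.15 (0.125).

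By genotype, lysosomal hydrolases and proton pump subunits lay mostly above 0 in set 1 and not in set 2. Of 34 other lysosomal hydrolases 28 were positive in set 1 (median 0.092 against −0.00038 over all genes) and 13 in set 2 (median −0.017 against 0.030). Of 16 subunits of the proton pump that acidifies lysosomes 16 were positive in set 1 (median 0.068) and 5 in set 2 (median −0.046). Both lists followed the earlier animals, in which 30 of 34 hydrolases and 16 of 16 pump subunits were positive (47.2% of all genes), against 20 and 7 in the later animals (52.9% of all genes). Membrane genes also followed the earlier animals, with 13 of 15 positive there and 8 in the later animals, and sorting genes had 13 and 9 of 17. By set, 11 of 17 sorting genes were positive in set 1 and 13 in set 2. Membrane genes had 12 and 9 of 15, and regulators 8 and 7 of 11. Of all genes tested 49.8% were positive in set 1 and 62.5% in set 2. Over both sets limma called 0 of the 34, 0 of the 16, 0 of 15 lysosomal membrane genes and 0 of 11 regulators. Among the hydrolases with the smallest p were Lipa, the acid lipase, at 0.19 (SE 0.046), and Gm2a, the activator of ganglioside breakdown, at 0.20 (SE 0.056). Psap, the precursor of the sphingolipid activators, was at 0.097, with 0.16 in set 1 and −0.00011 in set 2. In the later animals limma called 2 of the 34 hydrolases lower and 1 higher, against 4.35% and 2.79% of all genes. Lower were Aga (−0.44, limma adjusted p = 0.0326, called in 3 of 8 fits with 1 library left out) and Arsb (−0.26, 0.0497, 1 of 8). Dnase2a was higher (0.26, 0.0300, 3 of 8).

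Likeness between genes was measured as Pearson's r of log2(TPM + 1) over the 13 cultures, less the mean of each set. It is a description over 13 points that share libraries and animal groups. Genotype was not removed, so the genotype difference that chose Ctsh enters its r values. Genes with a like genotype difference can therefore rank high. Ctsd, Ctsb, Ctsl and Ctsz had r from 0.77 to 0.94 in their 6 pairs (Spearman's rho 0.52 to 0.85). Without M1 and M2 these r ran from 0.15 for Ctsd and Ctsl to 0.87 for Ctsd and Ctsz and were lower in 6 of 6 pairs. Over all 13 cultures Ctsh had r of 0.47 to Ctsa, 0.46 to Ctsb, 0.42 to Ctsl, 0.29 to Ctsd, 0.26 to Ctsk and 0.077 to Ctsz. Without M1 and M2 the r of Ctsh to Ctsd was −0.74. Over all 13 cultures Ctsk had r of −0.41 to −0.17 with Ctsd, Ctsb, Ctsl and Ctsz, and Ctsa had r of 0.35 to 0.62 with them. Without M1 and M2 the r of Ctsa to these 4 genes ran from −0.74 to −0.30. Of 8436 genes with a median of 10 TPM or more, the 5 most like Ctsh were Mt2, a metallothionein (r = 0.90, rho = 0.91), Bscl2, the lipid droplet protein seipin (0.89, 0.87), Smim14 (0.89, 0.91), Sar1a, a GTPase of the vesicle coat that leaves the endoplasmic reticulum (0.87, 0.85), and Sec22b, a membrane fusion protein of the same route (0.85, 0.79).

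The palindrome CACGTG, the core of the element bound by TFEB and related regulators of lysosomal genes, was searched on both strands in the 250 bases before each RefSeq start site (GRCm38.p6). Promoters of Ctsa, Ctsd, Ctsk, Ctsl and Ctsz were searched; those of Ctsb and Ctsh were not analysed here. The 6 letters were found in 3 of these 5 genes, against 6.86% of 27025 genes, and the longer palindrome TCACGTGA, which contains them, in 2 of 5, against 0.907%. The matches of Ctsd, Ctsl and Ctsa are shown 5′ to 3′ on the strand of the gene with CACGTG in capitals.
Ctsd, 98 bases before the start (chr7:142387908-142387937, minus strand): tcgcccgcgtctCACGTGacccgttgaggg
Ctsd, 245 bases before the start (chr7:142388055-142388077, minus strand): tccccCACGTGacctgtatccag
Ctsl, 236 bases before the start (chr13:64370739-64370768, minus strand): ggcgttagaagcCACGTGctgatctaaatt
Ctsa, 12 bases before its downstream start (chr2:164833749-164833772, plus strand): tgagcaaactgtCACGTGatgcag
All but the Ctsd match at 245 bases overlap an annotated exon of the same gene, so they lie before the RefSeq start but inside the gene as GENCODE M21 draws it. The upstream start of Ctsa, and those of Ctsk and Ctsz, had no match in this window. Among the other lists CACGTG was found in 2 of 4 partners and processing genes, 4 of 12 sorting genes and 3 of 12 membrane genes with a promoter. It was also found in 6 of 26 hydrolases, 2 of 11 pump subunits, 2 of 11 regulators, 1 of 13 other cathepsins and 0 of 10 inhibitors. Tfeb and its relatives Tfe3 and Mitf were among the 11 regulator genes tested, of which 0 were called in the comparison of genotypes or in that of animal groups.

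Some listed genes overlap others on the opposite strand. Ctsb overlaps Fdft1 (median 74.2 TPM), Ctsz overlaps Nelfcd (37.0 TPM), and Ctsa overlaps Pltp (17.3 TPM) and Neurl2 (8.85 TPM). Ctsd overlaps Gm49369 (3.67 TPM) on its own strand. The libraries were stranded, but whether counting used the strand is not given in the sources used here, so reads in these overlaps may be shared.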

How the data were processed

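Total RNA was extracted on columns and made into stranded libraries, per the labels' protocols. The deposited values are TPM, 1 table per library, per the file headers, over the same 25655 genes, and each sums to 1000000. The submitters' processing notes name mm10; aligner, counter and annotation were not given in the sources used here. Of 25655 gene identifiers 25600 matched GENCODE M21.

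TPM were transformed to log2(TPM + 1) and fitted with limma 3.58.1 in R 4.3.3 (mean-variance trend, robust empirical Bayes). A gene was tested if 6 libraries (both sets), 4 (set 1) or 2 (set 2) reached 1 TPM, with Benjamini-Hochberg adjustment over all of them and a threshold of 0.05. Set was a covariate over both sets. The genes and lists were chosen with earlier results of these data known. Named are the 7 genes, the other cathepsins, at most 4 genes of each list by smallest p, and the 5 genes most like Ctsh. Aif1, Tfeb, Tfe3 and Mitf were named after their values were seen. Alternatives were other pseudocounts, filters, scalings, blocks and left-out libraries. Levels were compared by permutation (scipy 1.17.1). Scripts were tested on simulated data.

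Labels do not say whether cultures share litters, so p values measure the spread between these cultures. Deviations from group means correlated by 0.314, 0.236, 0.244 and 0.214 between cultures of set 1 with the same replicate number, all over 0.1. Pairs with different numbers in the same animal group gave 0.397 (W1, M2), 0.189 (W2, M1), 0.440 (W3, M4) and 0.0885 (W4, M3). Pairs across animal groups were all negative, from −0.454 to −0.132. These values do not set the replicate number apart from the animal group. In set 2 same-number pairs gave −0.155 and 0.0138, and W5 and W6, the whole WT group there, have mirrored deviations. No label says what the replicate numbers mark. The number was run as a block in the genotype comparisons.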

Additional observations from a re-analysis of the deposited data

Results flagged for a closer look

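Ctsd, Ctsl and Ctsz had genotype differences of opposite sign in the animal groups of set 1, with both G234D cultures on 1 side of the WT mean in the earlier animals and both on the other side in the later animals. For Ctsd the difference was 0.45 in the earlier and −0.087 in the later animals, for Ctsl 0.29 and −0.050, and for Ctsz 0.11 and −0.094. These genes were chosen by this contrast, so whether the differences differ was not tested independently of that choice. The macrophage, muscle and Schwann cell markers of M1 and M2, given with the results, moved with the earlier values, and their part was not tested.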

How the results depend on the processing

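Over both sets limma called 0 genes under each alternative: other pseudocounts, filters, scalings, the robust step, either block and each library left out. In set 1 the count was 1 with the replicate block, 1 with a block for earlier and later animals, 23 when M1 and M2 were both left out, and 0 to 2 with 1 library left out. In set 2, where the main count was 1, it was 0 with a pseudocount of 5, with no filter and with a filter at 10 TPM, 21 with the replicate block, and 0 to 14 with 1 library left out. The interaction of set and genotype gave 16 without M1 and M2 and 0 to 1 with 1 library left out. Later against earlier animals gave 269 with no filter and 36 (without M2) to 883 with 1 library left out, against 850; without M1 it was 120. The genotype difference between animal groups gave 139 with no filter, 189 with the replicate block and 46 (without M1) to 674 (without M3), against 334. The causes were not tested. Values near 0 changed sign. For later against earlier animals Ctsa was at 0.023 with median-of-ratios scaling and 0.013 after quantile normalization, and with 1 library left out Ctsa ran from −0.053 to 0.054 and Ctsh from −0.021 to 0.045. For the genotype difference between animal groups Ctsk was at −0.024 after quantile normalization, and with 1 library left out Ctsk ran from −0.14 to 0.16 and Ctsh from −0.099 to 0.064. The replicate block changed no call of the 7 genes in the genotype comparisons over both sets or within a set. It could not be fitted to the comparison of animal groups, since each number lies within 1 group. In set 2 without W5 or W6 the lone WT culture is assumed to vary like the others. TPM hold no read totals, so counting error is unknown.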
